A study of Rattus norvegicus with 6 samples.

Results

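The genes described here are 39 targets of the transcription factor p53 and regulators of apoptosis. They were listed by name, and each was read from the array probes whose RefSeq transcript belongs to it. Of the 39 genes, 37 had at least 1 matched probe, and all 37 passed the filter on dim probes, among 11580 named genes that passed it in all. No probe was matched to Sesn1, a stress-induced sestrin, or to Tnfrsf10b, a death receptor for the ligand TRAIL, so neither is measured here. RNA came from primary ventricular myocytes of male Sprague-Dawley rats aged 1 to 2 days. All cultures were preplated to remove fibroblasts, grown with bromodeoxyuridine and kept for 36 h before transfection with RNAiMAX. The si-uc.323 group (3 samples) received 50 nmol/L of an siRNA against uc.323, a transcribed ultraconserved region, and the si-scramble group (3 samples) received 50 nmol/L of a scrambled siRNA. In both groups the siRNA was applied for 3 h in serum-free medium, starvation went on for another 21 h, and gene expression was measured 24 h after transfection. Both groups are thus transfected, serum-starved neonatal cells, and the level of uc.323 itself was not analysed here.

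The siRNA is shown because it defines the comparison. Its strand as given in the labels, without the 2 overhanging deoxythymidines, is as follows, with no base singled out by capitals.
si-uc.323: gguaaguaauuucagcaau

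p53 is a transcription factor that is stabilised after DNA damage and other stress. It switches on genes that halt the cell cycle, repair DNA or start cell death, together with Mdm2, the ligase that degrades p53 itself. In the mitochondrial pathway of apoptosis, BH3-only proteins bind and neutralise guardians such as Bcl-2, Bcl-xL and Mcl-1. Bax and Bak then open the outer mitochondrial membrane, and released cytochrome c assembles with Apaf1 and caspase 9 into the apoptosome. In the receptor pathway, death receptors of the TNF family recruit adaptors and caspase 8. Cardiac myocytes divide rarely in the adult heart, and their loss by apoptosis contributes to heart failure.

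Promoter sequence is shown for 4 members of the p53 target list, because p53 sites are built from a known decamer. A full site is a pair of such decamers, so a lone match is only part of a site. RefSeq promoters on build GRCr8, which run from 250 bases before to 50 bases after the start of a gene, were found for 30 of the 39 members. Capitals mark matches to the p53 decamer consensus, searched on both strands, which for this symmetric consensus is the same search.
Pmaip1, chr18:62255720-62256019, plus strand: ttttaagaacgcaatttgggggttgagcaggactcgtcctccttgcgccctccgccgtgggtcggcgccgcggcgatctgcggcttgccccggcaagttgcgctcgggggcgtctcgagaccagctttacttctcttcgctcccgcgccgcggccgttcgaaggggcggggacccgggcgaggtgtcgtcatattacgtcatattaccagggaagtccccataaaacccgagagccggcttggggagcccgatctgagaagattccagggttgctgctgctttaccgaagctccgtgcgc
Fas, chr1:241211905-241212204, plus strand: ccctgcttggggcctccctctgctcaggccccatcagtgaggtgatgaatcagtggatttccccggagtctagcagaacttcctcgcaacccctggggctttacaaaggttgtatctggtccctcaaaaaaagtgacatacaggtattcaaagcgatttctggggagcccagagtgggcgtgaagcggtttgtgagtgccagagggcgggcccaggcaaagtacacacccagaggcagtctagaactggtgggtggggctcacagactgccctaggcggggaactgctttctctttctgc
Aen, chr1:142224283-142224582, plus strand: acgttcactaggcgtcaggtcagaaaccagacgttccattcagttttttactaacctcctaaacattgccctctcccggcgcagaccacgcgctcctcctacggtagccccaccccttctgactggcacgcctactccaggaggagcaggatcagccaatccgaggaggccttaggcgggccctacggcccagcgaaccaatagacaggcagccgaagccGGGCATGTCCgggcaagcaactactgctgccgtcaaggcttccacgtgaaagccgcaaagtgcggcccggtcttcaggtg
Gadd45a, chr4:97486750-97487049, minus strand: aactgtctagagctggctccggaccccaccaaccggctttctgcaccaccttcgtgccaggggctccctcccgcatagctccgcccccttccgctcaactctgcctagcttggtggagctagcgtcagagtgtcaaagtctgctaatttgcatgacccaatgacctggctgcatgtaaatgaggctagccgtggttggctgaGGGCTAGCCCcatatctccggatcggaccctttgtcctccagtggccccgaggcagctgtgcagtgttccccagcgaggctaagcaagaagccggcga
The decamer consensus was found in 7.89% of 27456 promoters of this length, in 5 of the 30 member promoters and in 4 of the 10 that belong to the p53 target list. Those 4 were Aen, Ccng1, Gadd45a and Sesn1, and the fifth member was Cflar. In Aen the match began 30 bases before the start and in Gadd45a 48 bases before it. A spaced pair of CATG cores was found in 0.422% of all promoters and in 0 of the 30 member promoters. The windows of Pmaip1 and Fas held no match, which says only that these letters are absent from these windows. None of the 4 measured genes with a match, Aen, Ccng1, Gadd45a and Cflar, was called in the comparison described next. No promoter was found for Bax, Tradd, Bbc3, Zmat3, Tp53inp1, Bik, Casp8, Xiap or Tnfrsf10b, so these were not searched. Bax is among the members called there, so the search covers only some of the called members.

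Of the 37 measured members, 3 were higher with si-uc.323 and none was lower by limma, with Benjamini-Hochberg adjustment across the 19920 features tested (threshold 0.05). The 3 were Pmaip1, Bax and Fas, all known p53 targets that promote cell death. The other 34 members did not pass. At the same threshold 6.14% of all named genes were called (711 of 11580), 3.26% higher and 2.88% lower, against 8.11% of the members, so the called share of the members was close to that of all genes. In 15 members the values of the groups did not overlap, 8 higher and 7 lower with si-uc.323, which is 40.5% of members against 39.1% of all named genes (20.1% higher and 19.0% lower). The median log2 fold change over the members was -0.02, against 0.02 over all named genes. Of the 711 called genes 377 were higher. With a median shift of the arrays in place of the percentile the median over all genes moved to -0.08 and 279 of 783 called genes were higher, and among the members Fas was then not called and Tp53inp1 was. The samples are described as independent experiments. Whether any of them came from the same pups or preparation is not stated, so a p-value here reflects variation among these 6 samples, part of which may be technical.

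**Figure D1:**
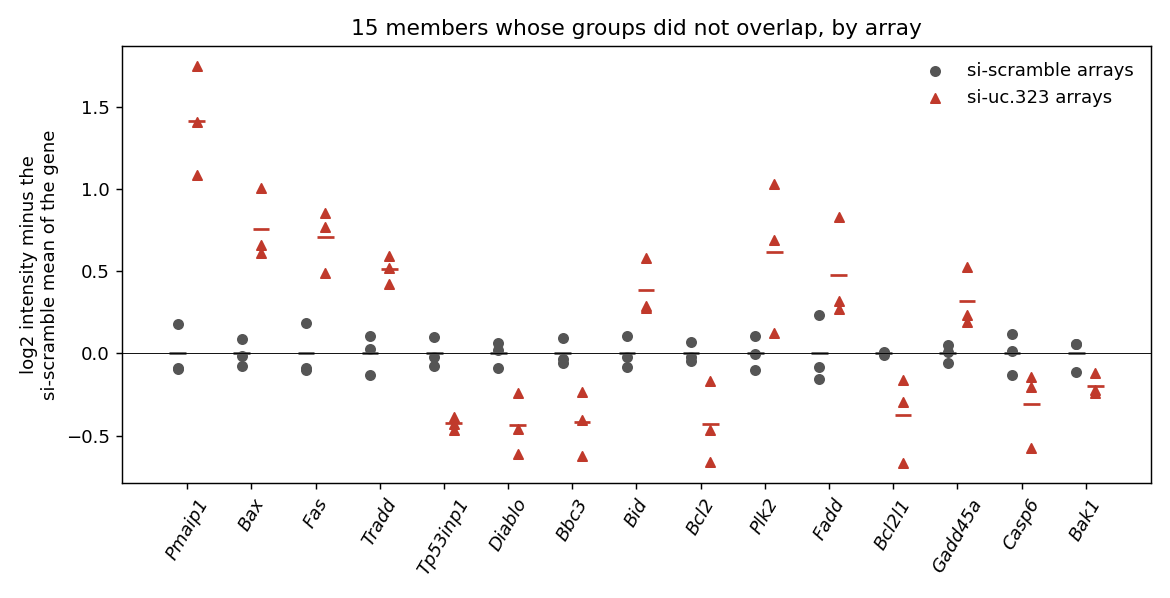
The 15 members whose groups did not overlap, ordered by unadjusted p. Each point is 1 array, as log2 intensity minus the mean of the 3 si-scramble arrays for that gene, and short bars are group means. Pmaip1 lay 1.09, 1.41 and 1.75 above the si-scramble mean on the si-uc.323 arrays, and the 7 members with lower values lay between -0.12 and -0.67.

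Levels are given as log2 intensity relative to the 75th percentile of the same array, so that a negative level is a probe dimmer than that percentile. Levels of different probes are not read as amounts of transcript, since probes differ in how brightly they report. Slides were inferred from scan identifiers in the file headers, which do not name a slide. The 3 control arrays and si-uc.323 replicate 1 shared an identifier and are called slide 1. The arrays of si-uc.323 replicates 2 and 3 did not have it and are called slide 2. Whether those 2 arrays shared a slide was not established. A fit with slide as a block therefore takes its fold change from si-uc.323 replicate 1 against the si-scramble arrays alone. Well above background were 71.8% to 73.9% of probes on slide 1, against 78.2% and 86.5% on slide 2. Myocyte markers were present, with 9 of 10 measured, all well above background on all arrays, and none called. Of the markers of dividing cells, 5 of 8 measured rose (62.5%, against 6.14% of all named genes called). The 8 had a median log2 fold change of 0.74, with a mean level of -1.26 to -1.23 on the si-scramble arrays and -0.48 to -0.39 on the si-uc.323 arrays. These 5 calls were lost with slide as a block, where limma called 0 named genes higher (1769 in either direction at an unadjusted p under 0.05), and without si-scramble replicate 1 or 3, where it called 0 in all (2380 and 2095 unadjusted). On si-uc.323 replicate 1, which lay on slide 1, the median over the 8 markers was 0.78 above the si-scramble mean. Smooth muscle markers had a median of 0.42 with 0 of 6 called, and a mean level of 0.35 to 0.43 against 0.65 to 0.94. Fibroblast markers had a median of 0.08 with 1 of 9 called (Postn, higher). None of the 6 endothelial and 9 leukocyte markers was called. All measured markers of dividing cells and smooth muscle were well above background on every array. The part of dividing cells or of other cell types in the results below was not tested. In RNA from whole cultures, fewer cells of a type and less RNA per cell cannot be told apart.

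Pmaip1 encodes Noxa, a BH3-only protein that binds Mcl-1. Its level was -6.61, -6.34 and -6.61 on si-scramble replicates 1, 2 and 3, and -5.44, -5.11 and -4.77 on si-uc.323 replicates 1, 2 and 3. Every si-uc.323 array lay above every si-scramble array, and the slide 1 array of si-uc.323 was the lowest of its group. The log2 fold change was 1.42 ± 0.19 (SE, n = 3 and 3), which is 2.67-fold, with an unadjusted 95% interval of 1.97 to 3.61-fold (limma adjusted p = 0.0202). The probe was dim and passed the filter only through the si-uc.323 arrays, so the fold and its interval are set against a group mostly not well above background. A filter that asked for all 6 arrays removed Pmaip1, so it was not tested there. Its background-subtracted intensity was 12.3, 17.0 and 12.1 units on the si-scramble arrays, of which 1 of 3 was well above background, and 27.9, 49.6 and 64.9 units on the si-uc.323 arrays, all well above background. With normexp background correction, whose added offset pulls dim probes towards 0, the log2 fold change was 0.19 (limma adjusted p = 0.277). A fit that blocked on slide gave 1.09 (limma adjusted p = 0.156). This is si-uc.323 replicate 1 minus the si-scramble mean, the same difference as on slide 1 alone, so the 2 fits are not separate results. The call was also lost without si-scramble replicate 1, 2 or 3 (adjusted p = 0.101, 0.0776 and 0.129 by limma).

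Bax encodes the protein that forms pores in the outer mitochondrial membrane. Its level was -1.21, -1.37 and -1.31 on the si-scramble arrays and -0.64, -0.69 and -0.29 on the si-uc.323 arrays. The groups did not overlap, and si-uc.323 replicate 3 was the highest array. Bax rose 1.69-fold (log2 fold change 0.76 ± 0.14, SE), with an unadjusted interval of 1.35 to 2.12-fold (limma adjusted p = 0.0333). Its probe was well above background on all arrays, and normexp gave nearly the same value, 0.69 (limma adjusted p = 0.0243). The call did not survive the slide block (0.66, limma adjusted p = 0.239) or the loss of si-scramble replicate 1, 2 or 3 (adjusted p = 0.121, 0.126 and 0.162). Bak1, the other pore former, did not pass and had the opposite sign (-0.20 ± 0.11, limma adjusted p = 0.288).

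Fas is the receptor for Fas ligand, which starts the receptor pathway. Its level on the probe that was the brighter of 2 over all 6 arrays was -5.59, -5.58 and -5.31 on the si-scramble arrays and -4.72, -5.00 and -4.64 on the si-uc.323 arrays. The log2 fold change was 0.71 ± 0.14 (SE, n = 3 and 3; 1.63-fold, unadjusted interval 1.29 to 2.07-fold; limma adjusted p = 0.0413). The groups did not overlap on this probe. The other Fas probe read 0.13 ± 0.12 with overlapping groups (limma adjusted p = 0.504 with every probe tested on its own), so the probes disagreed. On the si-scramble arrays alone the other probe was the brighter one (mean -5.28 against -5.49), so the higher si-uc.323 values of the probe used put it first. The mean over both was 0.42 (limma adjusted p = 0.0531). Like the other calls, it was lost with no filter on dim probes (limma adjusted p = 0.124, against 0.0884 for Pmaip1 and 0.111 for Bax). Fas was close to the threshold, and it did not pass with quantile normalization (0.57, limma adjusted p = 0.0508), a median shift (0.60, 0.0502), the series values (0.57, 0.0514) or normexp (0.08, 0.734). It was also lost when slide was a block (0.77, limma adjusted p = 0.214), without any 1 of the si-scramble replicates (adjusted p = 0.143 to 0.156), and without si-uc.323 replicate 1 or 3 (adjusted p = 0.0706 and 0.0800). Its ligand Faslg, which is no member, read -0.32 ± 0.11 (limma adjusted p = 0.108).

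**Figure D2:**
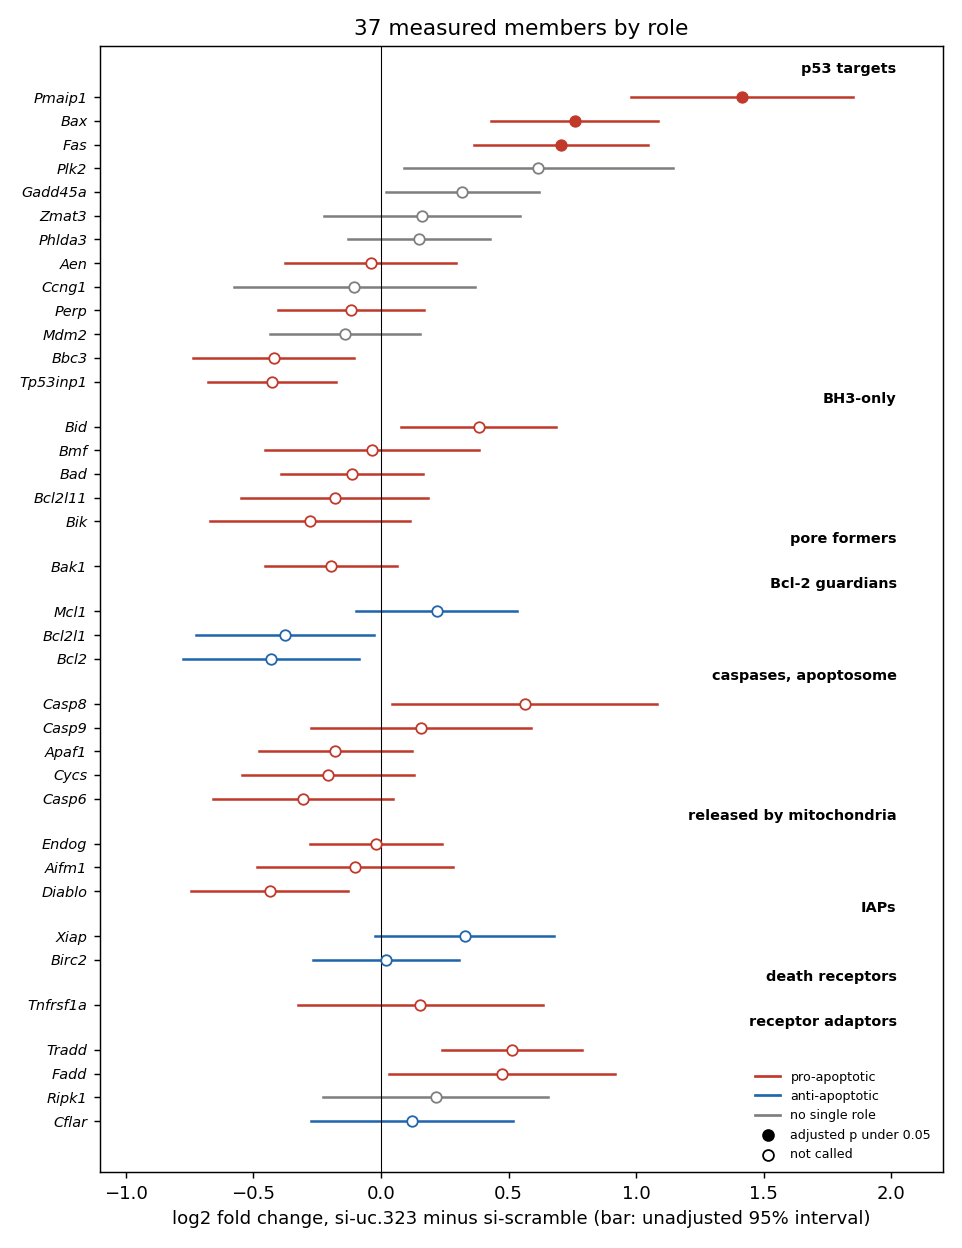
Log2 fold change (si-uc.323 minus si-scramble) of the 37 measured members with unadjusted 95% intervals, grouped by role, each gene drawn once. Filled points are the 3 members with an adjusted p under 0.05, all at the top of the p53 targets, and colours give the role in apoptosis. The 13 p53 targets span -0.43 to 1.42.

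The p53 targets did not share a direction. Of 13 measured, 3 rose and 10 did not pass, 7 had positive and 6 had negative log2 fold changes, and the median was 0.15. The called share was 23.1%, against 6.14% of all named genes, in a list chosen with earlier results of these data known. Groups did not overlap in 53.8% of the 13, against 39.1% of all named genes. On si-uc.323 replicates 1, 2 and 3 the median over the 13 genes lay -0.01, 0.19 and 0.03 from the si-scramble mean, so only replicate 2 stood apart from 0. Tp53inp1, a p53-induced protein of autophagy and cell death, had the opposite sign to Pmaip1. Its level was -1.72, -1.84 and -1.90 on the si-scramble arrays and -2.24, -2.28 and -2.20 on the si-uc.323 arrays, the tightest values of any member in the si-uc.323 group. All si-uc.323 arrays lay lower, at a log2 fold change of -0.43 ± 0.11, and the call was just missed (limma adjusted p = 0.0617). It passed with quantile normalization (-0.54, limma adjusted p = 0.0341), a median shift (-0.53, 0.0447), the series values (-0.53, 0.0341), cyclic loess (-0.51, 0.0305) and a trended prior (-0.43, 0.0447).

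Bbc3, which encodes the BH3-only protein Puma, read lower as well. Its level was 2.65, 2.50 and 2.52 on the si-scramble arrays and 2.15, 2.32 and 1.93 on the si-uc.323 arrays. The log2 fold change was -0.42 ± 0.13 without overlap (limma adjusted p = 0.101), and it passed only without si-uc.323 replicate 2 (-0.51, limma adjusted p = 0.0468) among the alternatives run. Noxa and Puma, both BH3-only products of p53 targets, therefore had opposite signs.

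Plk2, a polo-like kinase, was the most variable member with si-uc.323 (SD 0.457). Its level was -1.83, -2.04 and -1.94 on the si-scramble arrays and -1.25, -1.81 and -0.90 on the si-uc.323 arrays. The groups barely failed to overlap, because si-uc.323 replicate 2 lay only 0.13 above the si-scramble mean. Its log2 fold change of 0.62 ± 0.22 did not pass (limma adjusted p = 0.133), and without that array it was 0.86 and passed (limma adjusted p = 0.0298). Gadd45a, a growth arrest gene, was at -0.44, -0.51 and -0.40 on the si-scramble arrays and at -0.22, -0.26 and 0.07 on the si-uc.323 arrays. The groups did not overlap, and the value of 0.32 ± 0.13 did not pass (limma adjusted p = 0.157).

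The remaining p53 targets lay near 0. Mdm2, the negative regulator of p53, read -0.14 ± 0.12, with an unadjusted interval of -0.43 to 0.15. Ccng1, cyclin G1, read -0.10 ± 0.20 (-0.57 to 0.37), and Perp, a membrane protein of p53-dependent death, -0.12 ± 0.12 (-0.40 to 0.17). Phlda3, an inhibitor of Akt, read 0.15 ± 0.12 (-0.13 to 0.43), Zmat3, an RNA-binding protein, 0.16 ± 0.16 (-0.22 to 0.55), and Aen, an apoptosis-enhancing nuclease, -0.04 ± 0.14 (-0.37 to 0.29). In all 6 the groups overlapped. For 3 of them a dimmer probe stood apart from the brightest one, at 0.47 for Mdm2, 0.48 for Aen and 0.79 for Zmat3, without overlap in each. None of these dimmer probes passed (limma adjusted p = 0.0928, 0.104 and 0.0731 with every probe tested on its own).

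Among the BH3-only genes, 1 of 7 rose (Pmaip1) and 6 did not pass, and 5 of the 7 had negative values. This 1 call is 14.3% of the list, against 6.14% of all named genes. Bid, which links the receptor pathway to mitochondria, was at -4.55, -4.61 and -4.42 on the si-scramble arrays and at -4.24, -4.25 and -3.95 on the si-uc.323 arrays. All si-uc.323 arrays were higher, at a log2 fold change of 0.38 ± 0.13 (limma adjusted p = 0.113). Bik read -0.28 ± 0.17, Bcl2l11, which encodes Bim, -0.18 ± 0.16, Bad -0.11 ± 0.12 and Bmf -0.03 ± 0.18. These 4 had overlapping groups and adjusted p-values of 0.315 to 0.921 by limma.

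None of the 3 guardians passed. Bcl2 was at -2.71, -2.80 and -2.82 on the si-scramble arrays and at -3.44, -3.24 and -2.94 on the si-uc.323 arrays. The groups did not overlap, but the distance from the si-scramble mean ranged from -0.66 on si-uc.323 replicate 1 to -0.17 on replicate 3, and the log2 fold change of -0.43 ± 0.15 did not pass (limma adjusted p = 0.117). It passed under quantile normalization, on the series values and under cyclic loess (lowest limma adjusted p = 0.0326). Bcl2l1, which encodes Bcl-xL, was at 3.54, 3.55 and 3.53 on the si-scramble arrays and at 3.24, 3.37 and 2.87 on the si-uc.323 arrays. Its log2 fold change of -0.38 ± 0.15 did not pass (limma adjusted p = 0.156), and 2 of its other 3 probes read alike, at -0.35 and -0.35, while the dimmest read 0.37. Mcl1, which Noxa binds, read 0.22 ± 0.13 with overlapping groups (limma adjusted p = 0.327).

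Downstream of the mitochondria no member passed. Diablo, which encodes the IAP antagonist Smac, was at 2.10, 1.99 and 2.14 on the si-scramble arrays and at 1.84, 1.62 and 1.47 on the si-uc.323 arrays. All si-uc.323 arrays were lower, at a log2 fold change of -0.44 ± 0.13 (limma adjusted p = 0.0912), the most negative value of any member. The other proteins released from mitochondria had values nearer to 0, with -0.21 ± 0.14 for Cycs (cytochrome c), -0.10 ± 0.16 for Aifm1 and -0.02 ± 0.11 for the nuclease Endog. The second Cycs probe read 0.34 without overlap, so the probes of Cycs differed in sign. Casp6, an executioner caspase, was at 0.84, 0.59 and 0.75 on the si-scramble arrays and at 0.58, 0.53 and 0.15 on the si-uc.323 arrays. The lowest si-scramble and the highest si-uc.323 array were nearly equal, and the log2 fold change was -0.31 ± 0.15 (limma adjusted p = 0.231). Apaf1 read -0.18 ± 0.13 and Casp9 0.16 ± 0.18, both with overlapping groups. The dimmer Apaf1 probe read 0.16, also with overlap, so the probes of Apaf1 differed in sign. The IAPs, which bind caspases, read 0.33 ± 0.15 (Xiap) and 0.02 ± 0.12 (Birc2), again with overlap. The dimmer Xiap probe read 0.35 without overlap and did not pass (limma adjusted p = 0.162 with every probe tested on its own).

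In the receptor pathway, all 4 measured adaptors and regulators had positive log2 fold changes with a median of 0.34, and their median lay 0.37, 0.31 and 0.42 above the si-scramble mean on si-uc.323 replicates 1, 2 and 3, but none of the 4 passed. With normexp 2 of the 4 turned negative, Fadd (-0.056) and Cflar (-0.0058). Tradd, the adaptor of TNF receptor 1, was at -0.57, -0.33 and -0.41 on the si-scramble arrays and at 0.09, 0.16 and -0.02 on the si-uc.323 arrays. Every si-uc.323 array was the higher one, at a log2 fold change of 0.51 ± 0.12, and the threshold was just missed (limma adjusted p = 0.0513). Its dimmer probe read 1.06 ± 0.11 and passed (limma adjusted p = 0.0151 with every probe tested on its own). The mean over both probes passed too (0.79, limma adjusted p = 0.0196), and the brighter probe passed with normexp, quantile normalization, the series values, cyclic loess, a trended prior and a filter over all arrays. In all, Tradd passed under 7 of the 18 alternatives. It did not pass with a median shift (0.41, limma adjusted p = 0.103), with slide or replicate as a block, with no filter on dim probes, or with any 1 array left out.

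Fadd, the adaptor of Fas, was at -6.19, -6.11 and -5.79 on the si-scramble arrays and at -5.71, -5.76 and -5.20 on the si-uc.323 arrays. Again the groups were separate, and the value of 0.47 ± 0.19 did not pass (limma adjusted p = 0.155). Casp8, the caspase that Fadd recruits, read 0.56 ± 0.22 with overlapping groups (limma adjusted p = 0.153), was well above background on 2 of 3 si-scramble arrays, and also changed sign with normexp (-0.13). It passed without si-uc.323 replicate 2 only (0.78, limma adjusted p = 0.0423). Ripk1, a kinase with survival and death functions, read 0.21 ± 0.19 and its dimmer probe -0.11. Cflar, which encodes the caspase 8 inhibitor FLIP, read 0.12 ± 0.17, and its dimmer probe, designed on another transcript, read 0.64 without overlap (limma adjusted p = 0.0911 with every probe tested on its own). Tnfrsf1a, TNF receptor 1, read 0.15 ± 0.20, with its 3 si-uc.323 values on both sides of the si-scramble values.

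The median of the pro-apoptotic members was slightly below that of the anti-apoptotic members. Of 24 measured pro-apoptotic members, 3 rose and 21 did not pass, 9 values were positive and 15 negative, and the median log2 fold change was -0.07. The called share was 12.5%, against 6.14% of all named genes. The 6 anti-apoptotic members (Bcl2, Bcl2l1, Mcl1, Xiap, Birc2 and Cflar) had a median of 0.07, with 4 positive, 2 negative and none called. The pro-apoptotic median minus the anti-apoptotic median was -0.14 over the groups, and -0.15, -0.06 and -0.07 on si-uc.323 replicates 1, 2 and 3 taken one by one against the si-scramble mean. The sign is thus opposite to that of the 3 called pro-apoptotic genes. The other 7 measured members have no single role (median 0.16, none called).

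**Figure D3:**
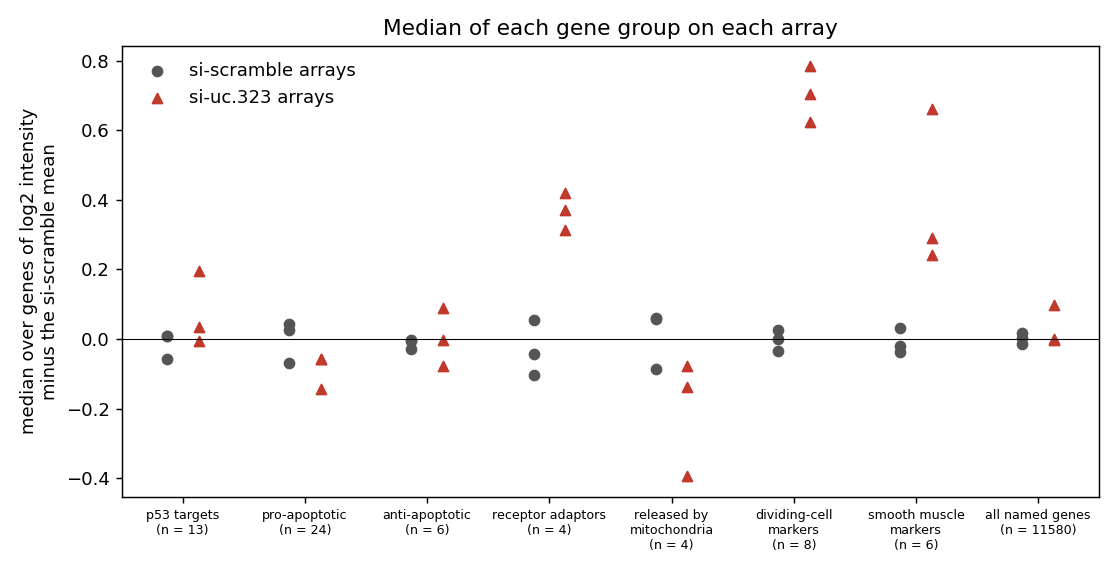
Median over the genes of each group of log2 intensity minus the si-scramble mean, 1 point per array. The pro-apoptotic and anti-apoptotic medians stay between -0.14 and 0.09 on all arrays, while the receptor adaptors lie at 0.31 to 0.42 and the dividing-cell markers at 0.62 to 0.78 on the si-uc.323 arrays.

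The sign of a member's value went with how bright its probe was, as it did over all named genes. Of the 8 members in the dimmest of 3 equal classes of all named genes, 6 had positive values (median 0.43), and of the 14 in the brightest class, 11 had negative values (median -0.13). The 15 members between had a median of 0.12. All named genes followed the same order with smaller values, with medians of 0.12, 0.09 and -0.09 in the dimmest, middle and brightest class. Of all named genes in these classes, 63.06%, 59.02% and 35.98% had positive values. Across the 37 members the Spearman correlation of level with log2 fold change was -0.47, against -0.24 across the 11580 genes. These points share the same 6 arrays and are a description. Pmaip1 and Casp8, with positive values at the dim end, passed the filter only through the si-uc.323 arrays, where they read higher. Their sign is therefore not independent of the filter. The filter treats both groups in the same way, and its part in the correlation was not tested. With a filter over all 6 arrays the correlation was -0.38 across 35 members and -0.23 across 11111 genes. With quantile normalization the values were -0.33 for the members and -0.05 for all genes, and with normexp -0.12 and 0.11. The part of probe brightness in the sign of single members was not tested. Pmaip1, Fas and Fadd are among the dim members, Bax and Tradd are not, and Diablo, Bbc3 and Bcl2l1 are among the bright ones.

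**Figure D4:**
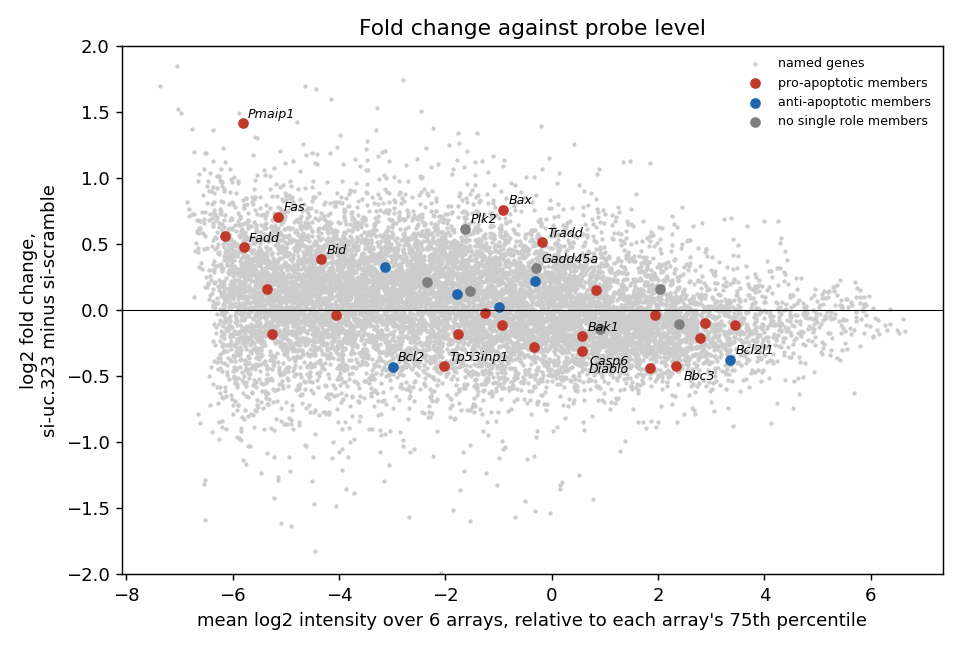
Log2 fold change (si-uc.323 minus si-scramble) against mean level over the 6 arrays. Grey points are the 11580 named genes, of which 15 lie outside the axis range, and coloured points are the 37 members, labelled where the groups did not overlap; members at the dim end lie mostly above 0 and those at the bright end mostly below.

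Other genes of the same pathways gave a similar picture. Called were 9.09% of further p53 targets, 0% of p53 regulators, 6.67% of further pro-apoptotic genes and 4% of further anti-apoptotic genes. Over all named genes the share was 6.14%. Of 33 further p53 targets measured, 2 rose and 1 fell, with a median log2 fold change of -0.11. Those that rose were Ckap2, a spindle protein (0.54 ± 0.11, limma adjusted p = 0.0446), and Plk3, a polo-like kinase (0.62 ± 0.13, limma adjusted p = 0.0458), and Dcxr, a xylulose reductase, was the one that fell (-0.69 ± 0.13, limma adjusted p = 0.0371). Of 16 regulators of p53, none passed. Among them Ppm1d, a phosphatase that is also a p53 target, read -0.48 ± 0.15 without overlap (limma adjusted p = 0.0916). Of 30 further pro-apoptotic genes, 2 rose, Casp12, an endoplasmic reticulum caspase (0.58 ± 0.12, limma adjusted p = 0.0443), and Dapk2, a death-associated kinase (0.68 ± 0.15, limma adjusted p = 0.0484). The median of those 30 was -0.01. Of 25 further anti-apoptotic genes, 1 rose, Birc5 (0.80 ± 0.14, limma adjusted p = 0.0294), which encodes survivin, an IAP that also acts in mitosis, and the median was 0.05. Birc5 moved beside the dividing-cell markers, and their part in its value was not tested. Without si-scramble replicate 1 or 3 limma called 0 named genes in all (2380 and 2095 at an unadjusted p under 0.05), so these 6 calls were lost there too.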

How the data were processed

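RNA of 3 si-uc.323 and 3 si-scramble samples was hybridised to 1-colour Agilent arrays. Per the file headers and the submitters' processing notes, Agilent Feature Extraction 11.0.1.1 produced the spot intensities, and the background-subtracted processed intensity was used as deposited (build rn4 in the headers). The authors also deposited a table of log2 values per array with an equal median of 6.51 in every column. How those log2 values were scaled or centred is not stated, they correlated with the scanner values at 0.9954 to 0.9995, and they serve as an alternative.

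Control spots and spots marked as outliers (322 to 594 per array) were left out, spots of a probe were averaged, and log2 intensity was taken relative to the 75th percentile of each array. A probe was kept where Agilent marks it well above background on every one of the 3 arrays in either group. A gene is represented by its brightest probe over all arrays. Of 30367 probes, 18005 matched 1 gene of the RefSeq table for GRCr8 by transcript accession and 12362 matched none. Groups were taken from the labels and compared with limma 3.58.1 (lmFit and eBayes, R 4.3.3), with p-values adjusted by Benjamini-Hochberg over all features. Replicate numbers were treated as names only. Deviations of samples with the same number correlated at 0.20, 0.39 and -0.12, within the range of -0.56 to 0.48 for samples with different numbers. Deviations from a group mean are tied to one another within the group, so these values cannot show whether equal numbers mark a shared preparation. With 3 arrays per group, their number limits the precision. On simulated arrays of the same 19920 features, of which 200 were changed, 51% of changes of log2 size 1 and 89% of size 2 were recovered, with 10 false calls. Of the called members only Pmaip1 had a log2 fold change above 1.

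The members and all gene lists were chosen with earlier results of these data known. Values per array are given for called members and then, by lowest p, for members whose groups did not overlap, up to 14 in all, and other members by fold change and error. In the further pathway lists, up to 4 called genes are named, or the 2 of lowest p, except 1 gene that is not reported here. Faslg was named after its value was seen, as the ligand of a called member, and so were the probes that disagreed. Results were also computed with 17 other choices of background correction, scaling, filter, choice of probe, prior, slide, replicate block and arrays left out, and with cyclic loess, which was added after seeing the data.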

Additional observations from a re-analysis of the deposited data

How the results depend on the processing

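Bax and Fas kept their direction under all 18 alternatives, and Pmaip1 under the 17 in which it was tested, since the filter over all arrays removed it. Against 711 named genes called, limma called 1172 with a trended and robust prior and 1182 with cyclic loess (chosen after seeing the data), 3 with slide as a block (1769 at an unadjusted p under 0.05), 0 on slide 1 alone (3639) and 0 with no filter on dim probes (3110). Leaving out 1 array gave 0 to 1859 genes, with 0, 12 and 0 without si-scramble replicates 1, 2 and 3, and 451, 1859 and 292 without si-uc.323 replicates 1, 2 and 3. With the replicate block 404 genes were called, and the members called stayed Bax, Fas and Pmaip1. Against 3 members called, 5 were called with quantile normalization, 5 on the series values, 5 with the trended prior and 6 with cyclic loess, while 0 were called with no filter (10 unadjusted), with slide as a block (6) and on slide 1 alone (11). Leaving out 1 array gave 0 to 6 members, 0 without any 1 si-scramble array and 6 without si-uc.323 replicate 2 (Bax, Bbc3, Casp8, Fas, Plk2 and Pmaip1). The pro-apoptotic minus anti-apoptotic median was -0.070 with quantile normalization and on the series values, and -0.074 with cyclic loess. Members not called changed sign as follows, and the cause was not tested. With normexp, Aen read 0.021, Casp8 -0.13, Casp9 -0.13, Birc2 -0.0081, Fadd -0.056 and Cflar -0.0058. With quantile normalization Aen read 0.0055 and Birc2 -0.040, on the series values 0.0059 and -0.039, while Birc2 read -0.085 with the median shift and -0.017 with cyclic loess. Averaged over probes, Mdm2 read 0.17, Aen 0.22 and Cycs 0.066. With slide as a block or on slide 1 alone, which give the same fold change, Phlda3 read -0.0071 and Endog 0.067. Leaving out 1 array gave -0.23 to 0.073 for Ccng1, -0.16 to 0.062 for Aen, -0.20 to 0.12 for Bmf, -0.029 to 0.33 for Casp9, -0.064 to 0.029 for Endog, -0.24 to 0.034 for Aifm1, -0.056 to 0.092 for Birc2 and -0.057 to 0.35 for Tnfrsf1a. Signal over background limits Pmaip1 and Casp8, which were well above background on 1 and 2 of the 3 si-scramble arrays.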
